A study of Mus musculus with 18 samples.

Results

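Wild-type AB1 cells, a mouse embryonic stem (ES) cell line, were compared after 72 h in 100 nM retinoic acid (RA) with leukaemia inhibitory factor (LIF) and after 8 h in control medium with LIF. The comparison takes 5 of the 18 arrays in the series, chosen by their titles: the 2 wild-type arrays labelled RA with LIF at 72 h and the 3 wild-type arrays labelled control with LIF at 8 h. The comparison has no control at 72 h, so the effect of RA and the effect of the longer culture cannot be told apart in any value below. The study also profiled wild-type cells after 8 h of RA with LIF (3 arrays) and Cyp26a1-/- cells, which lack the main enzyme that oxidises RA, in the same 3 conditions (3, 3 and 2 arrays), plus 1 control array without LIF per genotype. Every group compared here was labelled as grown with LIF, control cells included. The labels give the arrays as repeats of a treatment and do not say whether they came from separate cultures, so the p-values measure the spread between these arrays.

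RA is made from retinol and acts by binding nuclear receptors (RAR, paired with RXR), which sit on DNA at paired half-sites and switch nearby genes on. Among the genes known to respond are those that make, carry and destroy RA itself, and the Hox genes that set position along the body axis. In ES cells, LIF acts through STAT3 to support self-renewal, and RA is widely used to push the cells out of it. Without LIF withdrawal, RA is known to drive part of an ES cell culture towards extraembryonic endoderm, the tissue that lines the yolk sac.

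Bulk samples were measured, so fewer cells of a type and less RNA per cell cannot be told apart. The signal is the deposited Affymetrix brightness per probe set, rescaled to a trimmed mean of 500 per array. Signals under 50 were set to a floor of 50 before log2, and a fold against a group wholly at the floor is written as "at least". The 5 arrays were alike in brightness: 41.4 to 45.3% of probe sets reached 100 and the median signal was 61.5 to 75.6. The 8 defining markers of undifferentiated ES cells were at 100 or more on all 5 arrays. Some arrays nevertheless stood apart. Control replicate 1 had Socs3, the feedback inhibitor that LIF induces through STAT3, at a signal of 368, against 4484 and 3792 on the other controls and 2628 to 6001 on the other wild-type and knockout arrays with LIF except knockout control replicate 1 (215). The arrays labelled without LIF read 3800 in wild type and 4551 in the knockout, so Socs3 goes against the LIF labels of the replicate 1 controls, and results are also given with those labels exchanged where that matters. Socs3 was named after its values were seen. The same control array was low for endoderm genes, with a summed signal of 2546 over 8 extraembryonic endoderm markers against 7481 and 6908. At 72 h, replicate 2 carried fibroblast collagen signal that replicate 1 did not, with 10 of 19 fibroblast markers at 100 or more against 4. Some results that change without these arrays are given with and without them, and others on all arrays only. Among the latter, fewer Hox, basement membrane and secreted and surface endoderm genes rose without 72 h replicate 2.

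To show the kind of element known at such genes, the 250 bases before the transcription start are printed for 4 genes that rose, from RefSeq windows of build GRCm38.p6. The first pair are RA-responsive genes with a DR5 element, a direct repeat of the RAR half-site with 5 bases between, and the second pair are contractile genes with a CArG box, the site of serum response factor. Each window is given 5′ to 3′ along the gene, with the match in capitals. Cyp26a1 is on the plus strand (chr19:37697558-37697807), Rarb on the minus strand (chr14:16575477-16575726), Myl9 on the plus strand (chr2:156775214-156775463) and Acta1 on the minus strand (chr8:123894776-123895025).
Cyp26a1: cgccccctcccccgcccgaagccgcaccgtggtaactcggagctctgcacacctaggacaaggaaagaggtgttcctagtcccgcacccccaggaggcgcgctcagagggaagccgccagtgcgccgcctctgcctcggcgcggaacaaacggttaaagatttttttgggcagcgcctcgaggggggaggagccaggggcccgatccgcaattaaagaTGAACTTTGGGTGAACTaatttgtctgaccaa
Rarb: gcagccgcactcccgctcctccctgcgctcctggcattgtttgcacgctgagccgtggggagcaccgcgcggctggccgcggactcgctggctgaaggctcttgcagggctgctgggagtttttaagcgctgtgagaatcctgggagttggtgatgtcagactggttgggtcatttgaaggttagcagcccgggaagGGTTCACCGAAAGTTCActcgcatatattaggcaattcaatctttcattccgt
Myl9: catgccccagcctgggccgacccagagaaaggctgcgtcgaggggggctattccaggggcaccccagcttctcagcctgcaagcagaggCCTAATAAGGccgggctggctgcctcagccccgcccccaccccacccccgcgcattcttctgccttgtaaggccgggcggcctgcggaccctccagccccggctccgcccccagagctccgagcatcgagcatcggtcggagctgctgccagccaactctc
Acta1: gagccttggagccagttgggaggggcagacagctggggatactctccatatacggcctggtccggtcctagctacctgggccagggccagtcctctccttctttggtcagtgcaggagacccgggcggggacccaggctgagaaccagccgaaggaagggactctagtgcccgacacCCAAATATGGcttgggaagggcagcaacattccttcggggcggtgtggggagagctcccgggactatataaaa
These motifs and DR2, the same repeat with 2 bases between, were searched on both strands of windows of 300 bases, from 250 before to 50 after the start. The DR5 motif was found in 31 of 27025 genes with a window (0.115%) and the CArG box in 488 (1.81%). The Cyp26a1 match lay 32 to 16 bases before the start and read along the opposite strand, and the Rarb match lay 53 to 37 bases before it. Of the 16 RA-induced genes that rose at 72 h, 12 had a window, and Cyp26a1 and Rarb were the ones with a DR5 match. DR2 was found in 84 genes (0.311%) and in none of these 12. Of the 18 Hox, Cdx and cofactor genes that rose, 9 had a window and none held a DR5, DR2 or CArG match. Of the 20 actin and smooth muscle genes that rose, 18 had a window and 4 held a CArG box (Acta1, Anxa5, Cnn2 and Myl9). The matches describe letters in these windows and were not tested for binding.

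Of 11388 genes tested, 2814 (24.7%) were called at 72 h by limma with a Benjamini-Hochberg adjusted p under 0.05. Of these, 1830 rose (16.1% of genes tested) and 984 fell (8.64%). With quantile normalization 1492 rose and 1150 fell, so this split depends on the normalization. Genes that rose tended to be dim in the control arrays, with a median mean signal of 256.2, and the genes that fell tended to be bright, with a median of 1946. The rises were also larger: their median was 1.08 on the log2 scale, against -0.68 for the falls. The floor limits how far a dim gene can fall, and its part in this was not tested. At least 2-fold changes numbered 1015 up and 247 down, and at least 4-fold changes 229 up and 43 down. In 100 of the genes that rose every control array was at the floor, and in 17 of those that fell both 72 h arrays were at the floor. Arrays of the 2 groups did not overlap in 5650 genes (49.6%; higher in 3419, 30%, and lower in 2231, 19.6%), so lack of overlap alone is common here. The count of called genes rests on having both 72 h arrays: it was 1485 without 72 h replicate 1 and 1456 without replicate 2. The plot of mean signal in control against 72 h RA shows the spread of all genes.

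**Figure D1:**
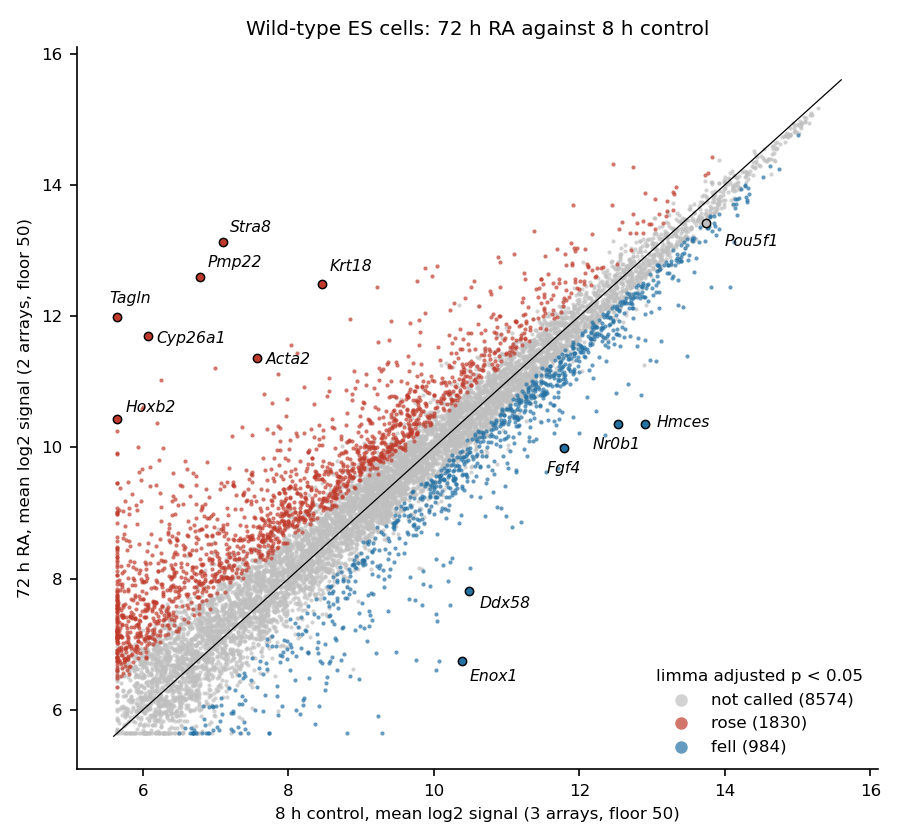
Each point is 1 of 11388 genes, with its mean log2 signal (floor 50) over 3 control arrays at 8 h on the x axis and over 2 RA arrays at 72 h on the y axis. Red points rose (1830) and blue points fell (984) by limma at an adjusted p under 0.05, and the line marks equal signal. The points farthest above the line, such as Tagln, Stra8, Pmp22 and Cyp26a1, start at the dim end, and Pou5f1 stays near the line at the bright end.

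Most listed genes of RA signalling rose. The gene lists here and below were chosen with earlier results of these data known, and some genes stand in several lists. Their counts describe the lists and are not separate support for a response. Of 20 RA-induced genes listed, 17 were on the array and tested, 16 rose (94.1%, against 16.1% of all genes) and 1 fell (Gbx2, a homeobox gene). Their median log2 difference was 3.35, against 0.06 over all genes tested. Cyp26a1, which inactivates RA, had signals of 17.5, 84.2 and 71.9 in the controls and 3402 and 3211 at 72 h. Every 72 h array was far above every control, a log2 rise of 5.62 ± 0.32 (SE, adjusted p = 3.32e-08, limma). Stra8, the gatekeeper of meiotic entry, which RA induces, had 184, 161 and 87.3 in the controls and 9751 and 8289 at 72 h. Its rise of 6.03 ± 0.30 (adjusted p = 8.89e-09) was about 65.5-fold. The groups were again fully separate, as they were for each of the 16 genes that rose. This held for 1822 of the 1830 rises over all genes tested, so it adds little to the call.

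The receptors, carriers and enzymes of the pathway were not all called. Of 31 listed genes of retinoid metabolism, transport and receptors, 20 were tested, 10 rose (50%, against 16.1% of all genes) and none fell. Their median was 0.70 (1.08 without control replicate 1). With no filter on dim genes, 10 of 26 rose and the median was 0.15. Cyp26a1, Cyp26b1, Dhrs3, Crabp2, Stra6, Rarb and Nrip1 were counted among the RA-induced genes as well. Rarb, the RA receptor that RA itself induces, was at the floor in the controls (28.4, 6.11 and 4.46 before flooring) and reached 566 and 514, at least 10.8-fold higher (log2 rise 3.43 ± 0.21, adjusted p = 5.10e-08). The other receptor genes tested were not called: Rara had 248, 245 and 497 against 228 and 205, Rarg 2363, 1627 and 2571 against 2160 and 1296, and Rxra 347, 283 and 492 against 277 and 289. These 3 genes were named after their values were seen. Among enzymes, Dhrs3, which reduces retinal back to retinol, rose from 13.7, 68.2 and 30.8 to 786 and 639 (3.68 on the log2 scale). Cyp26b1, the second RA-oxidising enzyme, went from 12.7, 12.4 and 11.4 to 465 and 556, at least 10.2-fold. Among carriers, Crabp2, which brings RA to its receptors, rose from 310, 319 and 182 to 2944 and 3125 (log2 rise 3.53 ± 0.25). Stra6, the receptor for retinol-binding protein, rose by 3.13, the co-regulator Nrip1 by 2.75 and Rbp4, the blood carrier of retinol, by 1.35. In the plots of signal by array, the RA genes sit far above the controls on both 72 h arrays.

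**Figure D2:**
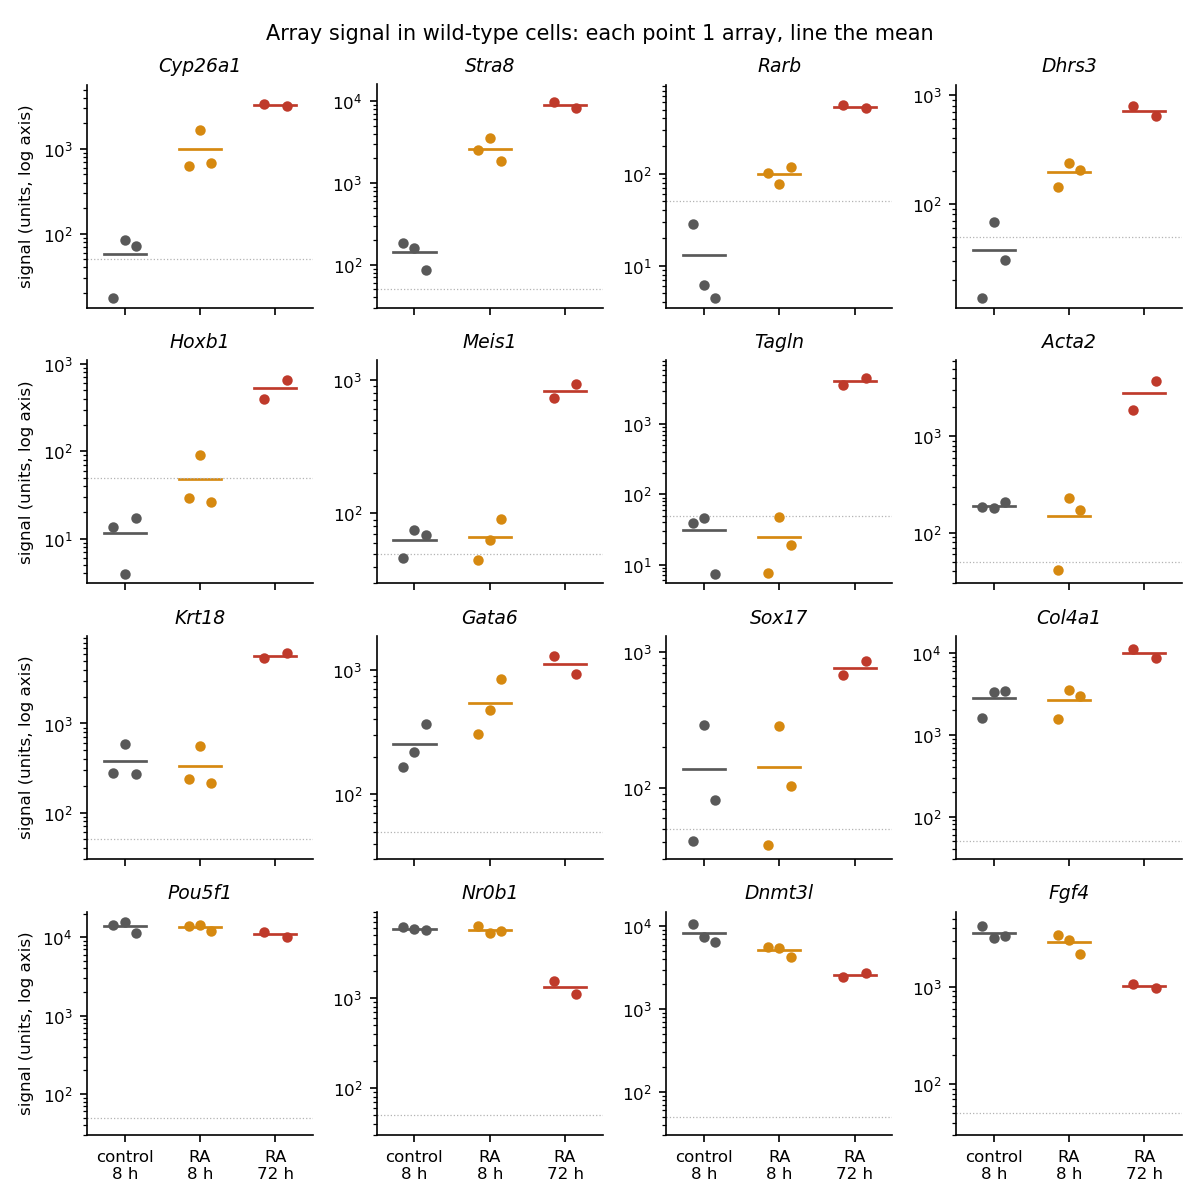
Array signal (log axis) of 16 genes in wild-type control at 8 h (3 arrays), RA at 8 h (3) and RA at 72 h (2), with each point 1 array, the line the group mean and the dotted line the floor of 50. Cyp26a1, Stra8, Rarb and Dhrs3 were already above control at 8 h, while Meis1, Tagln, Acta2, Krt18 and Col4a1 separated from it at 72 h, and Pou5f1 overlapped between control and 72 h.

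Many of these genes had moved by 8 h, and the 8 h comparison uses the same 3 control arrays, so its values are given side by side and not as separate support. At 8 h, 103 genes were called (0.904%), against 2814 at 72 h. Cyp26a1 had signals of 637, 1695 and 691 at 8 h, a log2 difference of 3.76 from control against 5.62 at 72 h, and the 72 h arrays exceeded the 8 h RA arrays by 1.87 ± 0.32 (adjusted p = 0.000766). Stra8 had 2516, 3549 and 1861 at 8 h and Dhrs3 142, 238 and 206, both between control and 72 h. Crabp2 (275, 322 and 251) and Cyp26b1 (14.5, 11.4 and 60.8) had 8 h signals that overlapped or nearly overlapped the controls, with log2 differences of 0.10 and 0.09. Aqp3, a water and glycerol channel named after its values were seen, had 1943, 2272 and 3645 at 8 h and 2188 and 2066 at 72 h, a 72 h less 8 h difference of -0.25 (adjusted p = 0.835). Its 72 h rise of 2.49 over control was not called without either 72 h array or without control replicate 1 (adjusted p of 0.0576 to 0.0871). Hmga2, a chromatin protein of early development, fell at 8 h (-0.85) and rose at 72 h (1.34).

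Hox genes and their cofactors rose together. Of 36 listed, 22 were tested, 18 rose (81.8%, against 16.1% of all genes) and none fell, with a median of 2.55. With no filter on dim genes, 21 of 32 rose and the median was 1.34. Genes with every control at the floor could be tested only through brighter arrays of other groups, so the filter favoured rises. By cluster, 5 of 6 Hoxa, 7 of 7 Hoxb and 2 of 3 Hoxc genes tested rose, and no Hoxd gene reached the signal needed for testing. Hoxb1, the 3′-most gene of its cluster and a direct RA target in the hindbrain, went from 13.6, 3.97 and 17.4 to 392 and 653, at least 10.1-fold higher. Hoxb2 went from 27.2, 8.67 and 25.7 to 1212 and 1584, at least 27.7-fold, and Hoxb5 from 2.86, 1.95 and 9.34 to 317 and 502, at least 7.98-fold. The controls of these 3 genes were at the floor on every array, so their rises are lower bounds that give no order. Cdx1, the caudal homeobox gene that acts upstream of Hox genes, rose from 42.2, 38.5 and 105 to 2175 and 1122 (log2 rise 4.61 ± 0.45). The cofactors Meis1 (46.5, 75.1 and 68.5 to 728 and 921) and Meis2 (37.7, 90.4 and 39.3 to 1069 and 989) rose by 3.69 and 4.08. In the 8 h RA arrays, Cdx1 (3.17) and Hoxb4 (1.43) were called and Hoxb1, Hoxb2, Meis1 and Meis2 were not.

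Part of the pluripotency list fell, while its central transcripts kept high signals. Of 37 listed genes, 34 were tested, 15 fell (44.1%, against 8.64% of all genes) and 3 rose (8.82%, against 16.1%). Their median was -0.39. Pou5f1 (Oct4), the central pluripotency factor, had 14308, 15815 and 11434 in the controls and 11838 and 10090 at 72 h. These ranges overlap, and the log2 difference of -0.33 ± 0.17 was not called (adjusted p = 0.177). Nanog, its partner, had 5205, 6212 and 7863 against 8299 and 7936, a difference of 0.36 ± 0.22 (adjusted p = 0.265). Esrrb and Dppa5a were not called either, with differences of -0.12 and -0.14. Sox2 and Zfp42 (Rex1) fell by small amounts, 0.55 and 0.37 on the log2 scale, and Sox2 lost its call without 72 h replicate 2 (adjusted p = 0.0884), as did Zfp42 (adjusted p = 0.0724).

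The genes that fell further encode partners and outputs of that core. Nr0b1 (Dax1), an orphan nuclear receptor that binds Oct4, went from 6165, 5872 and 5734 to 1563 and 1109, a fall of 2.17 ± 0.21 (adjusted p = 3.48e-06). Fgf4, the growth factor that ES cells secrete and that primes them for differentiation, went from 4219, 3174 and 3342 to 1071 and 975, a log2 difference of -1.80 ± 0.18. Dnmt3l, the cofactor of de novo DNA methylation, differed by -1.63, Utf1 by -1.50, the RNA-binding protein Lin28a by -1.33, Zfp296 by -1.27, Gdf3 by -1.14 and L1td1 by -0.99. In each of these the 72 h arrays lay wholly below the controls, as in 980 of the 984 genes that fell. The 3 that rose were Tbx3, Lefty1 and Dppa2. Tbx3 lost its call when either 72 h array or control replicate 1 was left out (adjusted p of 0.054 to 0.108), and Dppa2, with 7846, 8410 and 5438 against 10280 and 11549, was named after its values were seen. Dppa2 was not called without either 72 h array or without control replicate 3 (adjusted p of 0.0511 to 0.136). The summed signal of the 8 ES cell markers was 98669 to 107580 in the controls and 78107 to 85023 at 72 h. The count of pluripotency genes that fell was 9 without 72 h replicate 2, and that of genes that rose was 1 without either 72 h array.

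Of 19 tested genes of the LIF receptor and STAT3 response, 4 rose (21.1%, near the 16.1% of all genes) and 4 fell (21.1%, against 8.64%). Their median was -0.04. These counts and the median moved with single arrays. With the LIF labels of the replicate 1 controls exchanged, 4 rose and 6 fell, with a median of -0.36. The median was -0.47 without control replicate 1, the array with low Socs3, 0.29 without control replicate 3 and 0.18 without 72 h replicate 2. Socs2, a feedback inhibitor of cytokine receptors, differed by -2.34 (2193, 2681 and 2194 against 343 and 627), Myc by -1.25 and the LIF receptor gene Lifr by -0.93. The kinase genes Jak1 and Jak2 rose by 0.79 and 1.04 and Pim1, a STAT3 target, by 0.78. Leaving out either 72 h array left 2 genes that rose, and without replicate 1 there were 2 that fell. Lifr was not called without 72 h replicate 1 (adjusted p = 0.104), nor Pim1 without either 72 h array or control replicate 3 (adjusted p of 0.0524 to 0.125).

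Extraembryonic endoderm genes rose together. Of 11 transcription factor genes of that tissue tested (13 listed), 8 rose (72.7%, against 16.1% of all genes) and none fell. Their median was 2.04. Gata6 and Gata4, the factors that set primitive endoderm fate, went from 165, 220 and 369 to 1297 and 932 and from 65.2, 104 and 171 to 452 and 394, rises of 2.21 and 2.01. Sox17, which acts downstream of them, went from 40.9, 292 and 82.1 to 670 and 858, a rise of 2.84 ± 0.63 (adjusted p = 0.0043). Its controls varied widely, as did those of Sox7 (53, 209 and 313 against 807 and 593), yet in neither gene did the groups overlap. Foxa1 and Foxa2 encode pioneer factors of endoderm. Foxa1 was at the floor on all controls (24.6, 25.8 and 12.5) and had 326 and 321 at 72 h, at least 6.47-fold higher, and Foxa2 went from 37.4, 48.7 and 60.5 to 312 and 248 (2.39).

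Of 29 secreted and surface genes of extraembryonic endoderm, 19 were tested and 12 rose (63.2%, against 16.1% of all genes). Of the 19, 2 fell (Apoe and Dab1; 10.5%, against 8.64%), and the median was 1.64. Apoe went from 6860, 8355 and 10624 to 2328 and 2802 (-1.73). Krt8 and Krt18 are also counted with the epithelium genes below and Stra6 with the RA-induced genes above. With no filter on dim genes, 9 of 29 rose and the median was 0.79. Plat, tissue plasminogen activator, went from 54.9, 103 and 73.5 to 918 and 882 (log2 rise 3.59 ± 0.37). Pdgfra, the receptor that marks primitive endoderm, went from 68.5, 117 and 136 to 694 and 889 (2.93). Dab2, the endocytic adaptor of visceral endoderm, rose by 2.31 with controls of 143, 667 and 372 and 72 h signals of 1313 and 2007. Of 5 parietal endoderm markers, 4 were tested and all of these rose (Sparc, Plat, Pth1r and Snai1), against 16.1% of all genes. Thbd did not reach the signal for testing, with 38.7, 16.3 and 31.7 in the controls and 57.7 and 59.9 at 72 h. Pth1r reached 100 only on 72 h arrays, so the filter admitted it through its rise. Of 7 visceral endoderm markers, 3 were tested, and Amn and Cubn rose by 1.06 and 1.85 while Hnf4a was not called. Of the 4 that did not reach the signal for testing, Afp and Apoa1, secreted proteins of mature visceral endoderm, were at the floor on all 5 arrays. Ttr, another secreted protein, had 2.59, 1.15 and 3.23 in the controls and 100.8 and 8.07 at 72 h, and the ligand gene Ihh had 35.8, 38.8 and 34.6 against 52.3 and 104, so each reached 100 on 1 of the 72 h arrays. Sparc was not called without either 72 h array or without control replicate 1 or 2 (adjusted p of 0.05 to 0.161), and Snai1 without 72 h replicate 1 or control replicate 2 (0.159 and 0.0517). Amn lost its call without any array but control replicate 3, and Cubn without 72 h replicate 2 or control replicate 1 or 3, with adjusted p-values up to 0.339. Control replicate 1, the array with low Socs3, moved with these genes. The 8 endoderm markers summed to 2546 on it, 7481 and 6908 on the other controls and 20004 and 19445 at 72 h, so the 72 h arrays stood above each control. Without that array 7 of 10 transcription factor genes and 8 of 19 secreted and surface genes rose, and Sox7 (1.44, adjusted p = 0.0841) and Dab2 (1.71, adjusted p = 0.0752) were not called. Both also lost their calls without either 72 h array, with adjusted p-values of 0.0602 to 0.15. With the LIF labels of the replicate 1 controls exchanged, 8 of 10 and 12 of 19 rose.

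Of 16 basement membrane genes tested, 9 rose (56.2%, against 16.1% of all genes) and none fell, with a median of 1.03. With no filter on dim genes, 7 of 23 rose and the median was 0.42. Col4a1, the collagen IV chain that endoderm lays down in quantity, went from 1632, 3386 and 3411 to 11339 and 8864 (log2 rise 1.91 ± 0.33, adjusted p = 0.000713). Its partner chain Col4a2 rose by 2.25, and Serpinh1, the chaperone that folds collagen, went from 775, 859 and 1270 to 6736 and 6840, a rise of 2.84. Lamb1, a laminin chain gene, rose by 1.62. The laminin gene Lama1 had 410, 2555 and 2130 against 3814 and 5548 and was not called (adjusted p = 0.0867), its lowest control being replicate 1. Without that array 7 of 16 genes rose.

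Of 24 junction and epithelium genes tested, 12 rose (50%, against 16.1% of all genes) and 2 fell (8.33%, against 8.64%). Their median was 0.65, and simple epithelial keratins and desmoplakin were among those that rose. Krt18 went from 278, 586 and 273 to 5364 and 6210, a log2 rise of 4.03 ± 0.36 (adjusted p = 1.84e-06). Its pairing partner Krt8 went from 585, 1086 and 1036 to 5907 and 5970 (2.77). Dsp, desmoplakin, the plaque protein that anchors keratins at desmosomes, went from 161, 564 and 137 to 1106 and 1490 (2.47). Krt7 and Krt20 rose from the floor, at least 4.24-fold and at least 4.48-fold. In contrast Epcam, the adhesion protein of undifferentiated ES cells, went from 2572, 2614 and 2416 to 1234 and 978, a difference of -1.20 ± 0.21. Snai2, a repressor of E-cadherin, rose by 2.13, and Cdh2 (N-cadherin) by 1.85. E-cadherin itself, Cdh1, named after its values were seen, had 7829, 8976 and 5013 against 7847 and 7606. Without 72 h replicate 1 the number of genes that rose was 7, and without replicate 2, the array with collagen signal, the list's median was 0.39. The number that fell was 1 without any array but control replicate 3.

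Of 40 actin and smooth muscle genes listed, 32 were tested, 20 rose (62.5%, against 16.1% of all genes) and 2 fell (6.25%, against 8.64%). Their median was 1.25. The number that fell was 1 without either 72 h array or control replicate 1. Tagln (SM22), an actin-binding protein of smooth muscle, was at the floor on all controls (38.9, 46.2 and 7.45) and had 3654 and 4552 at 72 h, at least 81.6-fold higher (log2 rise 6.35 ± 0.24, adjusted p = 6.65e-10). Acta2, smooth muscle actin, went from 186, 179 and 208 to 1859 and 3757 (3.79 ± 0.46). Acta1, the skeletal actin gene whose promoter is printed above, went from 9.5, 30.6 and 71.7 to 581 and 504, and Myl9, a myosin light chain with a CArG box as well, from 92.6, 54.2 and 22.4 to 550 and 620, rises of 3.26 and 3.21. Tpm1 (1356, 982 and 771 to 5640 and 6896), Tpm2, Cald1 and Csrp1, which stabilise or regulate actin filaments, rose by 2.63, 2.31, 3.22 and 2.25. The annexin genes Anxa1 and Anxa3 rose by 4.22 and 3.32, with Anxa1 at 1297 and 4344 on the 2 arrays. None of these genes was called at 8 h.

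Fibroblast markers were read beside this group, because contractile genes are also active in fibroblasts. Of 20 fibroblast markers listed, 19 were on the array and 5 reached the signal for testing, of which Pdgfrb, Col5a1 and Fn1 rose and Thy1 fell. Col5a1 was not called without 72 h replicate 2 (adjusted p = 0.0553), nor Fn1 without replicate 1 (adjusted p = 0.0621). On 72 h replicate 2, Col1a1 was 302, Col1a2 432, Col3a1 253, Col5a2 450 and Dcn 210. On replicate 1 the same genes were 76.8, 91.3, 56.6, 49.9 and 24.2, and on the controls they were between 2.81 and 80.3. Postn, Lum and Lox, other fibroblast matrix genes, were at 53.2 or lower on both 72 h arrays. The summed signal over the 19 markers was 4219 to 5410 in the controls and 7626 and 8347 at 72 h. Most of this sum was Fn1, with 3868, 3068 and 3970 in the controls and 5739 and 5042 at 72 h. The knockout 72 h arrays summed to 7637 and 7177, although Col1a1, Col1a2, Col3a1, Col5a2 and Dcn were under 100 on both. The sum is therefore no measure of fibroblast signal. Tagln was high on both 72 h arrays, and without replicate 2 it was 6.19 above control on the log2 scale and 14 of 30 actin and smooth muscle genes rose. Without replicate 1, 15 of 30 did. The part of other cells in these signals was otherwise not tested. The heat map of contractile and fibroblast genes shows the difference between the 2 arrays.

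**Figure D3:**
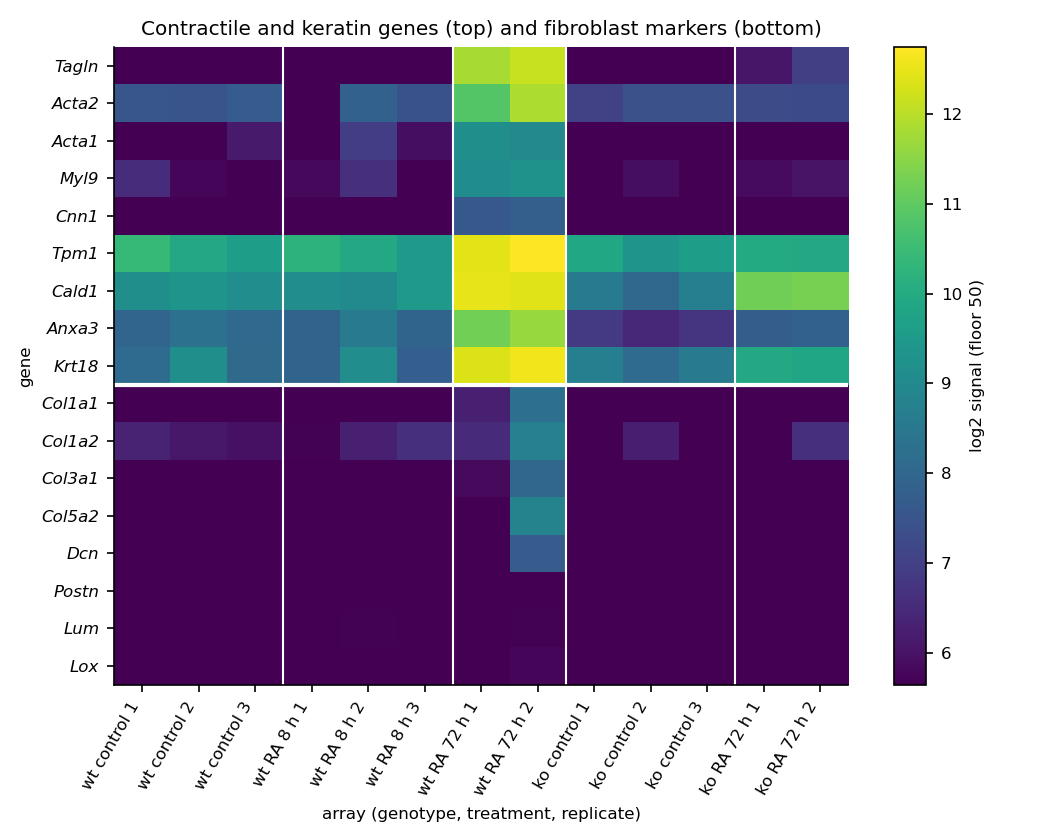
Log2 signal (floor 50, colour scale) of 9 contractile, annexin and keratin genes (top) and 8 fibroblast markers (bottom) on wild-type and Cyp26a1-/- arrays (ko), 1 column per array. The top genes are bright on both wild-type 72 h arrays, while Col1a1, Col1a2, Col3a1, Col5a2 and Dcn are brightest on wild-type 72 h replicate 2 and Postn, Lum and Lox are near the floor throughout.

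Markers of other lineages were called in part. Of 15 neural genes tested, 2 rose (Irx3 and Isl1; 13.3%, against 16.1% of all genes) and 2 fell (Tubb3 and Gbx2), with a median of 0.13 (-0.09 without control replicate 3), and the neural progenitor genes Sox1 (165, 128 and 58 against 223 and 253) and Pax6 (143, 213 and 56.2 against 151 and 176) were not called. Of 10 primitive streak and mesoderm genes tested, 4 rose (Pdgfrb, Meox1, Eomes and Foxf1; 40%, against 16.1% of all genes). With no filter on dim genes, 7 of 21 rose and the median was 0.15. Tbx6 and Mesp1, early mesoderm factors, were under 100 on all 5 arrays. Of 11 trophectoderm genes, 4 rose (Krt7, Eomes, Gata3 and Esx1; 36.4%, against 16.1%), with Gata3 going from the floor to 159 and 118. That count was 1 without 72 h replicate 1 and 2 without replicate 2. Elf5, a trophoblast stem cell factor, was at the floor on all 5 arrays. Of 13 germ cell and meiosis genes, Stra8, Rec8, Kit and Ddx4 rose (30.8%, against 16.1% of all genes). Rec8, the meiotic cohesin, went from 147, 133 and 177 to 792 and 604 (2.20), whereas the synaptonemal complex gene Sycp3, named after its values were seen, had 257, 251 and 173 against 256 and 331. Of 7 blood and endothelial genes tested, Cd68 fell by 1.32 on the log2 scale (14.3%, against 8.64% of all genes). None rose, by limma or at an unadjusted p under 0.05 (0 genes). Among the genes named here, Isl1 and Esx1 were not called without 72 h replicate 1 (adjusted p of 0.103 and 0.0827), Ddx4 without either 72 h array or control replicate 3 (0.0821 to 0.136) and Tubb3 without any array but control replicate 1 (0.0619 to 0.193). The plot of list members shows the order of the lists.

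**Figure D4:**
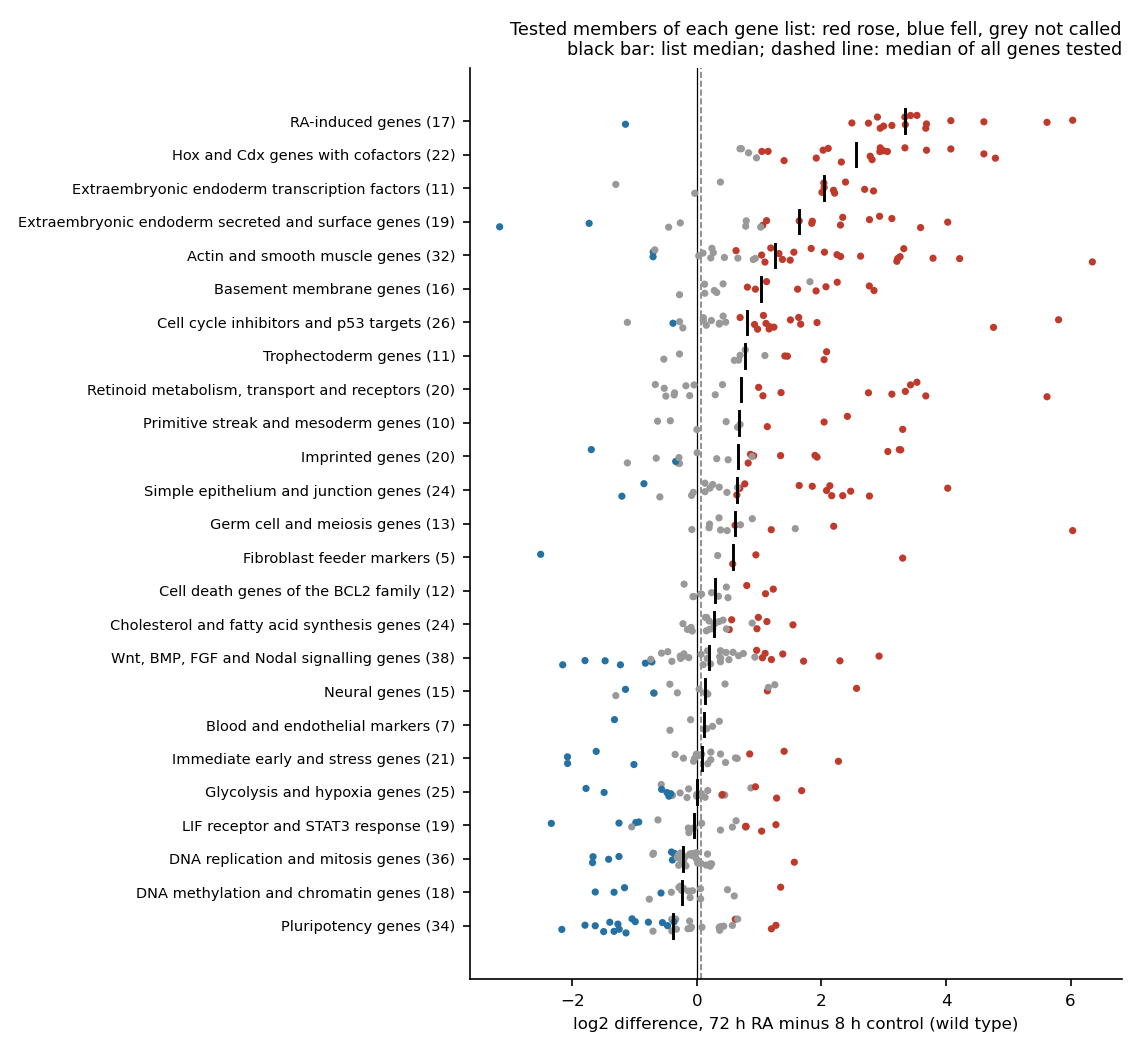
Log2 difference (72 h RA minus 8 h control, wild type) of each tested member of 25 gene lists, with the number tested in brackets, red for genes that rose, blue for genes that fell and grey for the rest. The black bar is the list's median and the dashed line the median of all genes (0.06); RA-induced and Hox genes lie farthest right and pluripotency genes farthest left.

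Of 26 cell cycle inhibitor and p53 target genes tested, 14 rose (53.8%, against 16.1% of all genes) and 1 fell (3.85%, against 8.64%). Their median was 0.81. Pmp22, a growth-arrest gene better known as a myelin protein, had 111, 115 and 105 in the controls, 194, 254 and 330 after 8 h of RA and 5612 and 6810 at 72 h. Its log2 rise of 5.81 ± 0.24 (adjusted p = 1.25e-09, limma) rested on controls all above the floor. Gas1, another growth-arrest gene, went from 102, 87.8 and 36.7 to 1500 and 2873 (4.76), and Cdkn1a (p21), the inhibitor that p53 induces, from 508, 570 and 495 to 1591 and 1732 (1.67). Cdkn2b, an inhibitor of G1 kinases, rose by 1.63, and the cyclin G genes Ccng2 and Ccng1 by 1.93 and 1.24. Without 72 h replicate 1 the number that rose was 8, and without replicate 2 it was 9, with Cdkn2b no longer called (adjusted p = 0.0551).

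Of 36 genes of DNA replication and mitosis tested, 8 fell (22.2%, against 8.64% of all genes) and 1 rose (Ccnd2, cyclin D2; 2.78%, against 16.1%). Their median was -0.23. Ccne1, the G1/S cyclin, had 6180, 4221 and 7454 in the controls and 1374 and 2420 at 72 h, a difference of -1.67, and it lost its call without 72 h replicate 1 (adjusted p = 0.0535). Mycn differed by -1.68 (4563, 6811 and 3576 against 1149 and 1972), Ccnd1 (cyclin D1) by -1.42 and Myc by -1.25. The helicase and licensing genes Mcm3 and Cdt1 and the checkpoint kinase gene Bub1b fell far less, by 0.39, 0.41 and 0.36 on the log2 scale. All 3 lost their calls without either 72 h array (adjusted p of 0.0625 to 0.158), Cdt1 also without control replicate 1 or 2 and Bub1b without control replicate 3 (0.0567 to 0.0783). Ccnd2 was not called without 72 h replicate 2 or control replicate 3 (0.253 and 0.0965). The number that fell was 5 without either 72 h array and 5 with quantile normalization.

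Of 25 glycolysis and hypoxia genes tested, 4 rose (16%, against 16.1% of all genes) and 6 fell (24%, against 8.64%), with a median of 0.00. The share that rose was that of the background. The kinase gene Pdk1, which keeps pyruvate out of mitochondria, had 4595, 4373 and 3401 in the controls and 1012 and 1400 at 72 h (-1.78), and Ldha, lactate dehydrogenase, had 20584, 20379 and 19993 against 12910 and 14576 (-0.57). Vegfa and Egln1, both hypoxia-inducible, rose by 1.68 and 1.28. Without 72 h replicate 2 the number that fell was 3. Among genes of cholesterol and fatty acid synthesis, the rises were led by the desaturase genes Scd1 (1747, 1477 and 1494 to 4332 and 4816) and Fads1. Of the 24 tested, 6 rose (25%, against 16.1% of all genes) and none fell. Without 72 h replicate 1 that count was 3.

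Of 20 imprinted genes tested, 9 rose (45%, against 16.1% of all genes) and 2 fell (10%, against 8.64%). Their median was 0.66. That median rests on single arrays: it was -0.05 without 72 h replicate 2, the array with collagen signal, and 0.27 without control replicate 1, and either array left out gave 1 gene that fell. Igf2, the fetal growth factor, went from 225, 218 and 253 to 2308 and 2164 (log2 rise 3.27 ± 0.32), and Dlk1, a Notch-related surface protein, from 65.1, 82.5 and 71.8 to 802 and 597 (3.25 ± 0.25). Sgce rose by 3.07 and Plagl1 by 1.93. Peg3 and Mest, named after their values were seen, were uneven between the 72 h arrays, with 1125 and 4885 for Peg3 and 4185 and 12357 for Mest, both higher on replicate 2. Without that array neither was called (adjusted p of 0.255 and 0.744), and Mest was not called without any 1 of the controls either (0.0587 to 0.0859). Phlda2, a brake on placental growth, fell (5388, 5946 and 8547 against 1553 and 2587, -1.70). Of 18 DNA methylation and chromatin genes, 1 rose (Hmga2) and 4 fell (22.2%, against 8.64% of all genes). Among the falls were Tet1, which oxidises methylated cytosine (-1.16), and Eed of the Polycomb complex (-0.58). Tet1 was not called without 72 h replicate 1 (adjusted p = 0.116), nor Eed without replicate 2 (adjusted p = 0.0843).

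Of 38 Wnt, BMP, FGF and Nodal signalling genes tested, 8 rose (21.1%, against 16.1% of all genes) and 6 fell (15.8%, against 8.64%), so these counts are no result about the list, and the values below are those of single genes. Bmp4, which supports ES cell self-renewal together with LIF, had 4952, 4427 and 6440 in the controls and 1330 and 1028 at 72 h, a log2 difference of -2.15 ± 0.21 (adjusted p = 3.48e-06). Smad6, an inhibitor of BMP signalling, rose by 2.92 (57.9, 76 and 32.1 to 528 and 398), and the Wnt antagonist Dkk1 by 2.30. Along with Fgf4, the FGF pathway inhibitor gene Spry4 fell (-1.47), as did Lgr4, a receptor that enhances Wnt signalling (-0.83). The numbers up and down were 3 and 4 without 72 h replicate 1, and 5 and 5 without replicate 2.

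Among 21 immediate early and stress genes, 3 rose (Jun, Atf3 and Ddit3; 14.3%, against 16.1% of all genes) and 4 fell (Egr1, Mt1, Mt2 and Hmox1; 19%, against 8.64%). Mt1, a metal-binding metallothionein, had 11647, 9489 and 13328 in the controls and 2741 and 2654 at 72 h (-2.08), and Egr1, a growth-factor response gene, had 480, 1084 and 1219 against 202 and 205 (-2.08). Bik, Casp8 and Bad, of the BCL2 family and caspases, rose by 1.23, 1.10 and 0.80. Of the 12 genes tested, 3 rose (25%, against 16.1% of all genes) and none fell. That count was 1 without 72 h replicate 1, when Bik and Casp8 were not called (adjusted p of 0.137 and 0.0719), and 2 without replicate 2, when Bad was not (0.054). Ddit3 was not called without 72 h replicate 2 or control replicate 1 or 2 (adjusted p of 0.063 to 0.302). Across the lists with none that fell, at most 1 tested gene was lower at an unadjusted p under 0.05 by limma. Genes at the floor on every control array could not be lower.

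Outside the lists, the larger rises included Zfp703, a transcriptional repressor (12.7, 15.9 and 18.4 to 1422 and 1044, at least 24.4-fold), and Bhmt, an enzyme of methionine synthesis (27.1, 54.6 and 93.1 to 2212 and 1059, a log2 rise of 4.59 ± 0.37). Crxos, a homeobox gene of early embryos, rose at least 19.4-fold, Adgra2, an adhesion receptor, at least 19.2-fold and Greb1l, known for its role in kidney formation, by 4.18 on the log2 scale. Adgra2 and Greb1l were also called at 8 h, with rises of 1.91 and 1.49. The 72 h arrays of these genes lay above all controls by choice, since the largest rises were picked among genes whose arrays did not overlap.

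The larger falls were mostly of genes with moderate control signal. Enox1, a surface oxidase gene, had 1895, 1402 and 902 in the controls, 972, 762 and 627 after 8 h of RA and 73.6 and 156 at 72 h, a difference of -3.64 ± 0.34 (adjusted p = 2.55e-06). Chrna9, a nicotinic receptor subunit, had 582, 590 and 643 against 72.4 and 26 (-3.33), and Bnc2, a zinc finger gene, 1301, 981 and 986 against 96.9 and 119 (-3.33). Nkx6-3, a homeobox gene, was at the floor at 72 h (40.9 and 41) from 474, 370 and 1392, and Dab1, the adaptor of reelin signalling, was at the floor (44.5 and 33.4) from 506, 483 and 371. Liph, a lipase gene, had 1036, 1040 and 607 against 107 and 109, and Ddx58 (RIG-I), the sensor of viral RNA, differed by -2.67. Hmces, a shield of abasic DNA that is bright in ES cells, had 5989, 8509 and 8864 against 1345 and 1277 (-2.55). Aass, an enzyme of lysine breakdown, had controls of 1907, 1719 and 350 against 106 and 88.9. Bnc2 and Ddx58 were already called at 8 h, with differences of -0.82 and -1.04.

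Of the genes called at 72 h, 76 of 1830 that rose and 8 of 984 that fell had been called in the same direction at 8 h. Against the 8 h RA arrays, 2540 genes (22.3%) were called at 72 h. These comparisons share arrays with the 72 h comparison, so the counts stand side by side and are not separate evidence.

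The Cyp26a1-/- cells, measured on other arrays under the same treatments, gave 2622 called genes at 72 h (23%), 1681 up (14.8%) and 941 down (8.26%). Of the genes that rose in wild type, 1206 rose in the knockout as well, 65.9% of the wild-type and 71.7% of the knockout rises. For falls the number was 631, which is 64.1% and 67.1%. No gene rose in one genotype and fell in the other, and the log2 differences correlated across the 11388 genes at Pearson r = 0.81 and Spearman rho = 0.78, a description across genes that are not independent replicates. The Cyp26a1 probe set itself read 52.6, 9.81 and 23.3 in the knockout controls and 2872 and 3075 at 72 h. Which part of the gene is deleted relative to the probe set is not given in the sources used here, so this signal checks neither the genotype nor the label. The 16 RA-induced genes that rose in wild type also rose in the knockout, where the median of the list was 2.99 against 3.35 in wild type. Stra8 rose by 6.42 in the knockout against 6.03, Crabp2 by 2.57 against 3.53, Meis1 by 2.51 against 3.69, Meis2 by 3.11 against 4.08 and Cyp26b1 by 2.60 against 3.35. Rarb rose by 2.71 against 3.43, a difference between genotypes of 0.72 ± 0.30 that was not called (adjusted p = 0.77), which does not show that the responses are alike. Gbx2, which fell in wild type (-1.15), was not called in the knockout (-0.38), and the difference was not called either (adjusted p = 0.822).

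The test of the difference itself, wild-type less knockout response, called 39 genes (0.342%), 36 with the larger value in wild type and 3 with the smaller. Contractile genes were among the 36. Tagln reached 67.5 and 128 in the knockout at 72 h, from 12.2, 4.9 and 4.67, so its response differed by 5.46 ± 0.34 (adjusted p = 9.38e-07). Acta2 was 158 and 152 at 72 h in the knockout against 132, 171 and 171 in its controls, a difference in response of 3.81 ± 0.65 (adjusted p = 0.0209). Acta1, Cnn1, Myl9, Tpm1 and Anxa3 were called as well, and Cald1, which rose by 2.81 in the knockout and 3.22 in wild type, was not. Across the list, 20 of 32 actin and smooth muscle genes rose in wild type and 10 in the knockout. Krt18 rose in both genotypes, to 977 and 923 in the knockout, and by 2.62 ± 0.51 more in wild type (adjusted p = 0.0421). Where knockout signals were at the floor, as for Tagln, Acta1, Cnn1 and Myl9, the size of the difference depends on the floor.

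Gata6 and Lefty1 went the other way. Gata6 went from 14.4, 63.9 and 41.2 to 1636 and 1472 in the knockout, a rise of 4.84 against 2.21 in wild type, so its response differed by -2.63 ± 0.53 (adjusted p = 0.0473). Its 72 h signals were of similar size in both genotypes, and its control signals were higher in wild type. Lefty1, a Nodal inhibitor, rose by 2.76 in the knockout and 1.20 in wild type. The third was Olig3, a neural transcription factor named after its values were seen, with 263 and 248 in the knockout at 72 h. The genotype count depends on single arrays: it was 1 without wild-type 72 h replicate 2, the array with collagen signal, 1 without knockout 72 h replicate 2, 8 without wild-type 72 h replicate 1, 28 without wild-type control replicate 2, and 11 to 16 without any other array of the 4 groups. The fibroblast markers at 100 or more numbered 5 of 19 on both knockout 72 h arrays. The plot of both genotypes shows these genes off the diagonal.

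**Figure D5:**
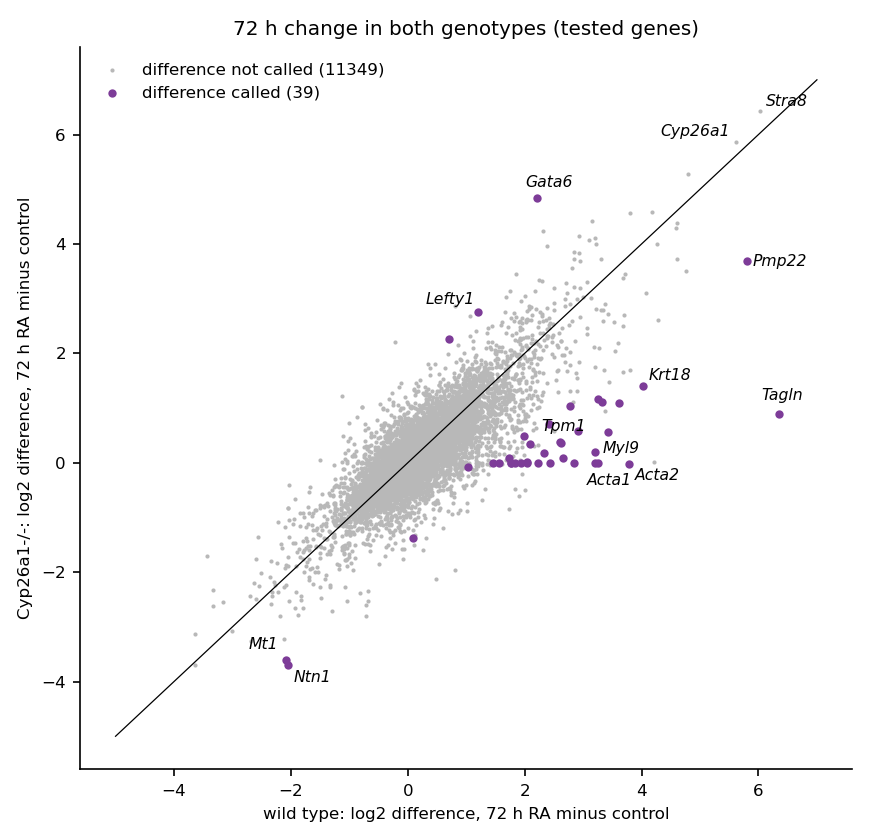
Each point is 1 of 11388 genes, with the log2 difference between 72 h RA and control in wild type on the x axis and in Cyp26a1-/- cells on the y axis, and the line marks equal change. The 39 purple genes differed between genotypes (limma, adjusted p under 0.05), with Tagln, Acta2 and Krt18 below the line and Gata6 and Lefty1 above it, while Cyp26a1 and Stra8 lie near it.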

How the data were processed

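RNA from mouse AB1 ES cells was measured on 18 Affymetrix arrays with 45101 probe sets. The deposited values are signal intensity per probe set on a linear scale, made by the authors with MAS5, per the submitters' processing notes, and no genome build is given in the sources used here. Here the signals of an array were scaled so that their trimmed mean (2% off each end) was 500, values under 50 were raised to 50, and log2 was taken. Of the probe sets, 34958 had 1 gene symbol, 932 several and 9211 were unlisted; symbols come from the platform annotation, and 34754 probe sets matched a RefSeq gene. One probe set per gene was kept, that with the highest mean over the 18 arrays, which gave 18194 genes, and genes at 100 or more on at least 2 arrays of the fit were tested (11388). Brightness cannot be compared between probe sets, and the number of arrays limits the precision.

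Tests were run in R 4.3.3 by limma 3.58.1, using lmFit and eBayes with an intensity trend, on the 16 arrays of the 6 replicated groups, with 10 residual degrees of freedom and Benjamini-Hochberg adjustment over all genes tested; the fit shares 1 estimate of the spread. An interaction contrast compared the 72 h responses of the genotypes. The script was tested on simulated data. Members and gene lists were chosen with earlier results of these data known. Named genes were Cyp26a1, the 15 largest rises and 15 largest falls among called genes whose arrays did not overlap, up to 8 called members of each of the 25 lists by adjusted p (the 2 largest differences where none was called) and the cell type markers; other genes were named after their values were seen. Alternatives changed the floor, the added constant, the normalization, the filter, the probe set rule, the arrays in the fit, the replicate block, the intensity trend, the LIF labels of the replicate 1 controls and each array in turn. Promoter windows were read from RefSeq tables of build GRCm38.p6 with Python 3.11.15.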

Additional observations from a re-analysis of the deposited data

Results flagged for a closer look

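The 72 h change differed between wild-type and Cyp26a1-/- cells, by an interaction test in limma (Benjamini-Hochberg adjusted p under 0.05), in 39 genes, 36 with the larger value in wild type and 3 with the smaller. Among contractile genes, the wild-type log2 change exceeded that in the knockout by 5.46 for Tagln, 3.81 for Acta2, 3.26 for Acta1, 3.01 for Myl9, 2.26 for Tpm1 and 2.05 for Cnn1. The same test gave 2.20 for Anxa3, 2.62 for Krt18, 1.75 for Krt7, 2.11 for Pmp22, 2.08 for Dlk1 and 2.04 for Eomes. Ntn1 and Mt1 fell in both genotypes and by less in wild type, with differences of 1.65 and 1.53. The 3 smaller in wild type were Gata6 (-2.63), Lefty1 (-1.56) and Olig3 (-1.55). Where a group lay at the floor, as for Tagln, Acta1, Cnn1 and Myl9, these values are no bound on the difference. Of the fibroblast markers, 10 of 19 were at 100 or more on wild-type 72 h replicate 2, 4 on replicate 1 and 5 on each knockout 72 h array, and their part in these differences was not tested.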

How the results depend on the processing

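The count of 2814 genes called at 72 h in wild type stayed within 1.5 times under the alternatives tried, except for a 2-fold minimum (1262) and leaving out a 72 h array (1456 to 2621 over the 5 arrays left out in turn). It was 1882 with the 5 arrays alone and 3156 with the LIF labels exchanged. With a replicate block it was 3942, and the genotype count was 56. Under the block 14 genes of DNA replication and mitosis fell, as did 7 DNA methylation and chromatin genes, 6 immediate early and stress genes and 5 pluripotency genes rose, and the LIF list's median was 0.37. The labels number the arrays only in part and name no shared culture or day, so the block was not used for the main values. Deviations of same-numbered arrays correlated at 0.032 to 0.504 (median 0.26 over 36 pairs, against -0.14 over 70 others), and 15 of 16 arrays correlated best with one of their own number, a hint of pairing from the data. The count of 39 genes that differed between genotypes was not stable: it was 192 with a floor of 100, 5 with a floor of 25, 7 with 32 added in place of the floor, 19 with quantile normalization, 123 with no filter, 11 with a filter at 200, 78 with the mean of all probe sets, 9 with the 10 arrays alone, 83 with no intensity trend, and 1 to 28 with single arrays left out. The cause was not tested, beyond what fewer arrays and other numbers of genes tested show by construction. On the 5 arrays 41.6 to 45.6% of probe sets lay at the floor, where differences cannot be read. Of 167 genes followed, 121 kept their direction and their side of the threshold under the alternatives tried, and no called gene changed direction. Among genes not called, Socs3 was -0.49 with the LIF labels exchanged (adjusted p = 0.0281, limma) and -0.53 to 1.27 with single arrays left out, Rarg -0.73 to 0.0094, Esrrb -0.30 to 0.13, Cdh1 -0.12 to 0.30 and Pax6 -0.092 to 0.87. Cdh1 was -0.015 with the replicate block, and Pax6 -0.00105 with the mean of all probe sets.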

Other observations

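Other probe sets of 5 genes that were not called, Cldn3, Dnmt3a, Fosl2, Lss and Mcl1, pointed the opposite way from the probe set used here. These genes are named for that reason, after their values were seen.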
